A study of Mus musculus with 18 samples.

Results

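The genes described here are those of the cytosolic ribosomal proteins, taken as the genes whose mouse symbol has the form of a cytosolic ribosomal protein gene (Rpl or Rps with a number and at most a short suffix) or is Rplp0, Rplp1, Rplp2 or Rpsa, leaving out the Rps6k kinases and named pseudogene copies. The rule took 85 of 23474 genes and used no measured value. They comprised 41 large subunit genes, 31 small subunit genes, 3 stalk genes and 10 paralogues, which are copies such as Rpl10l, Rpl39l, Rpl3l, Rpl22l1 and Rps27l that stand beside a standard gene. Of the paralogues, 4 (Rpl6l, Rps3a2, Rps3a3 and Rps4l) are annotated as pseudogenes. The other 75 members, called the standard members below, have coding lengths of 75 to 1257 bases with a median of 453. By whole transcript 47 of them have at most 1000 bases, the limit used below for other short genes, so the sets are not matched in length. Rpl13 and Rpl24 were not analysed here. Fau and Rack1, which also encode ribosomal proteins, do not match the rule.

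The cytosolic ribosome is built from ribosomal RNA and a fixed set of proteins, each encoded in the mouse by an active gene in a single copy, and many of these genes have inactive processed copies elsewhere in the genome. The proteins are named by subunit, Rpl for the large and Rps for the small subunit, and a lateral stalk of Rplp0, Rplp1 and Rplp2 recruits the factors that drive elongation. Their messages are among the most abundant of a cell, and most of them begin with a 5′ terminal oligopyrimidine tract (TOP), through which mTORC1 sets their translation. In fat and liver, ribosome production is known to follow nutrient supply through that kinase.

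Male C57BL/6J mice, 10 per diet, were fed from 5 weeks of age for 12 weeks and were 17 weeks old at sampling. The diets were a normal one (ND), one high in fat (HFD), and that same fat-rich food with 0.25% by weight of green tea ethanol extract (GT). Poly(A) RNA of the epididymal fat and of the liver was sequenced in 3 libraries for every combination of tissue and diet, 18 libraries together, and no group carried a genetic change. Whether libraries came from different mice is not said in the labels, so the p-values given reflect how far these libraries scatter, part of which may be technical. Values are FPKM, fragments per length of transcript and depth of library, so levels of different genes can be compared per length. Changes are differences of log2(FPKM + 1) ± SE from limma, with p-values adjusted by the Benjamini-Hochberg method over every gene tested and called below 0.05, and the added 1 matters only for members of low level. A filter on low values kept 81 members in fat, 80 in fat without library ND 1 and 79 in liver. It left out Rpl3l, Rpl6l, Rpl7l1 and Rps3a3 throughout, Rpl10l in the latter fits and Rpl39l in liver, and all 75 standard members were kept. RNA from fewer cells of a type and less RNA per cell cannot be told apart in such tissue samples.

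The tissues carried their defining markers: the 10 adipocyte markers summed to 17410 to 33250 FPKM in 8 fat libraries and to at most 240.4 in liver, and the 10 hepatocyte markers summed to 52424 to 97579 in liver and to at most 30.1 in fat. Fat library ND 1 stood apart. Its adipocyte markers summed to 4471, its 20 testis markers to 110826 with 18 of 20 at 10 FPKM or more, and its 8 epididymis markers to 20764. The epididymis markers also summed to 1276 in fat HFD 2, which stays in the fits, and to at most 48.1 in the other fat libraries. Testis markers also summed to 3827 in fat ND 3 and to 2480 in fat HFD 1, against 53.2 to 239.3 in the other 6 fat libraries. Every fat comparison is therefore given with and without ND 1. In liver, 12 muscle markers summed to 145.2 in HFD 2, 59.8 in GT 3, 31.0 in HFD 3 and at most 3.44 elsewhere. Alb, the albumin gene, was listed at 0 in liver HFD 3 and at 21156 to 28177 FPKM in the other 8 liver libraries, which lowers the FPKM total of HFD 3 on which scaling to equal totals rests. The total of all FPKM values was 1002770 in fat ND 1, 527904 to 608819 in the other fat libraries and 680168 to 930139 in liver, and read numbers were not analysed here.

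Start-site sequences were taken from RefSeq (GRCm38.p6), which gave 73 windows for 61 of the 85 members, from 250 bases before to 50 bases after a start. They are shown because a pyrimidine run at the start is the feature by which these genes are regulated as a class, and because members that later prove to differ in diet response can be set beside each other. Each line gives 40 bases before the start and the first 20 bases transcribed, 5′ to 3′ on the gene's strand, and capitals mark the longest run of C and T of at least 5 bases that touches the 10 bases on either side of the start. Rpl15 (chr14:18270967-18271026, minus strand), Rpl35 (chr2:39005112-39005171, minus strand) and Rpl39 (chrX:37085203-37085262, minus strand) were higher on the high-fat diet in both tissues.
Rpl15: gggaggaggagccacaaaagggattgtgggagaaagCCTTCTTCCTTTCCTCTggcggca
Rpl35: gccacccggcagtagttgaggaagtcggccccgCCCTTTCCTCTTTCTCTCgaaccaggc
Rpl39: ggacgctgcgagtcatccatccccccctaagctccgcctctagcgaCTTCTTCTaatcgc
Rplp0 (chr5:115559427-115559486, plus strand), Rpl5 (chr5:107900488-107900547, plus strand) and Rps3 (chr7:99483690-99483749, minus strand) had the opposite sign in liver, without passing the test.
Rplp0: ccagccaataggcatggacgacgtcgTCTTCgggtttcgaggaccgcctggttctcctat
Rpl5: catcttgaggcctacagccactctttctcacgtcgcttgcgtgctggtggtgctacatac
Rps3: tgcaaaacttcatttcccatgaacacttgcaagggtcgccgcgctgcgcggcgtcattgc
The paralogue Rps27l (chr9:66946046-66946105, plus strand, the first of 2 windows in the table) is shown because its change in HFD liver was called under every alternative run.
Rps27l: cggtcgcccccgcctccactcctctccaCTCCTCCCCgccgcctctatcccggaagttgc
The marked run spans 17 bases in Rpl15 and 18 in Rpl35 but 8 in Rpl39 and 5 in Rplp0, and none is marked at the annotated start of Rpl5 or Rps3. The Rpl5 window does hold the run ctctttctc, which ends shortly before the searched bases and is unmarked for that reason. Other members higher in both tissues had short runs (Rpl27 5, Rpl36a 5 and Rpl37 6 bases), while Rpl4 and Rpl22l1, which were not higher in HFD liver, had runs of 14 and 10 bases, so run length did not separate the members shown.

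A run of at least 5 pyrimidines at the start was present in 67.1% of the 73 member windows and in 44.9% of all 32851 windows of the table. A run of at least 8 was present in 39.7% and 13.7%. The letters CGGAAG, the core bound by ETS factors, occurred on either strand of the whole window in 60.3% of member windows and 16.9% of all windows, and TATAAA in 9.59% and 13.6%. CTTTC on the sense strand between 20 bases before and 30 bases after the start, which can lie inside a pyrimidine run, was found in 28.8% and 6.57%. Its reverse complement GAAAG, searched in the same place, was found in 8.22% and 6.30%. These matches describe letters in a window and are not binding sites.

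The members were a larger part of the messenger pool in fat than in liver. Their FPKM values summed to 3.85% and 3.47% of the total in fat ND 2 and ND 3, to 4.83% to 5.36% on the high-fat diet and to 3.71% to 4.94% with the extract, while ND 1 stood at 10.1%. In liver the share was 1.84% to 2.30% on the normal diet, 2.32% to 2.63% on the high-fat diet and 1.75% to 1.92% with the extract. The 3 HFD liver libraries thus lay above the 6 other liver libraries, but HFD 3 (2.32%) exceeded ND 2 (2.30%) by little. The total of HFD 3 lacks Alb, listed at 0 there, which raises its share, so the order of these libraries is uncertain. In fat GT 1 lay within the HFD range while GT 2 and GT 3 lay below it. The median standard member stood at 261.5 and 220.7 FPKM in fat ND 2 and ND 3 and at 836.0 in ND 1. It reached 365.6, 314.3 and 338.5 in HFD fat and 333.5, 277.9 and 232.7 in GT fat. In liver it was 172.3, 233.3 and 169.7 on the normal diet, 230.8, 281.8 and 222.3 on the high-fat diet, and 161.5, 155.0 and 177.9 with the extract. None of the 1350 values of the standard members was listed at 0.

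**Figure D1:**
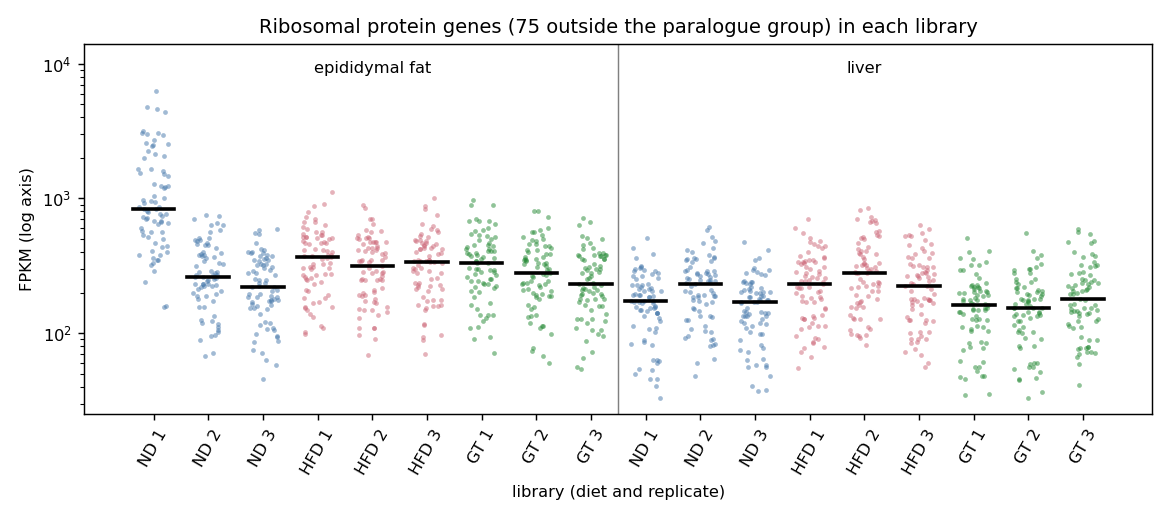
FPKM (log axis) of the 75 standard members in each of the 18 libraries, 1 point per gene with a black line at the median, coloured by diet. Fat ND 1 has a median of 836.0 against 220.7 to 365.6 in the other fat libraries, and the liver medians run from 155.0 to 281.8.

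Levels within a library spanned more than an order of magnitude. The members with the highest mean in fat were Rplp1, Rpl41 and Rps21, and in liver Rpl10, Rplp1 and Rps18. Rplp1, an acidic stalk protein, stood at 751.9 and 579.6 FPKM in fat ND 2 and ND 3, at 1124, 896.0 and 1006 on the high-fat diet and at 971.3, 813.1 and 668.8 with the extract. Rpl10, a large subunit protein that joins late in assembly, stood at 506.5, 580.6 and 476.7 in ND liver, 601.2, 702.8 and 594.4 in HFD liver and 508.1, 550.3 and 564.3 in GT liver, so its HFD libraries lay above the other 6. Rpsa, a small subunit protein also known as a laminin receptor precursor, stood at 188.1 and 165.3 in fat ND 2 and ND 3, at 202.9 to 248.9 in HFD fat and at 99.5 to 171.1 over the 9 liver libraries. Reads of standard genes can be shared with their processed copies, and no source used here says how such reads were assigned, and levels of single members are uncertain for that reason.

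In fat ND 1 the excess of the members was uneven. For 73 of the 75 standard members ND 1 lay above the mean of ND 2 and ND 3, by 4.22 times in the median and by 0.777 to 19.1 times over all of them. Rps20 stood at 1513 FPKM in ND 1 against 95.5 and 63.1, Rpl36 at 4770 against 331.0 and 319.9, Rplp2 at 2570 against 268.0 and 163.0, and Rpl41, which encodes the shortest of these proteins, at 4576 against 488.0 and 403.3. In contrast Rpl5 stood at 158.3 against 221.9 and 185.4, Rpl7 at 290.6 against 385.1 and 279.3, and Rps3 at 238.0 against 230.9 and 194.0. By coding length the median ratio was 6.89 for the 9 standard members of up to 300 bases, 4.98 for 27 members above that and up to 450 bases, 4.18 for 18 of up to 600 and 2.15 for 21 longer ones. Other protein-coding genes showed the same order at a lower level, with median ratios of 2.13, 1.41, 0.961 and 0.630 in these classes and 0.425 above 1300 bases. Testis markers and total FPKM were highest in the same library. Their part in the excess was not tested.

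**Figure D2:**
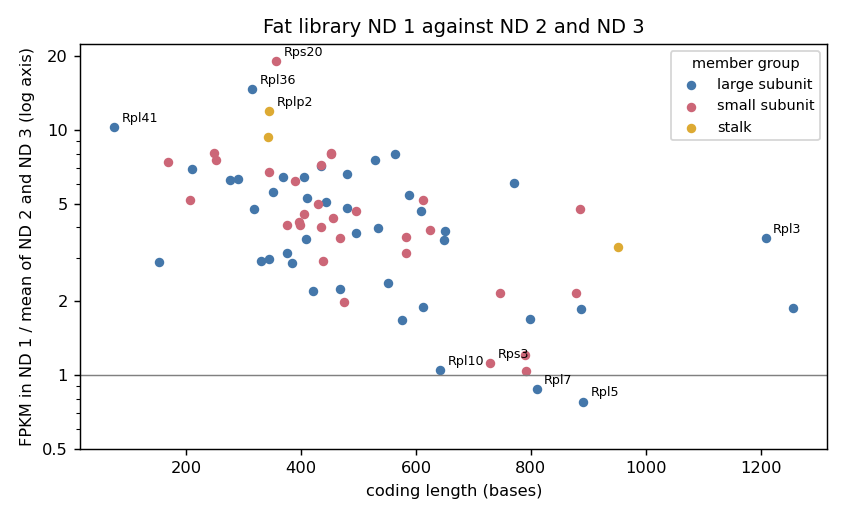
Ratio of FPKM in fat ND 1 to the mean of ND 2 and ND 3 (log axis) against coding length for the 75 standard members, coloured by group. Ratios fall from a median of 6.89 up to 300 bases to 2.15 above 600 bases, and Rpl5 and Rpl7 lie under 1.

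Several paralogues separated the libraries in another way. Rpl10l, the autosomal copy of the X-linked Rpl10 that serves male germ cells, stood at 120.5 FPKM in fat ND 1. It reached 13.5 in fat ND 3 and 7.35 in fat HFD 1, while the other 6 fat libraries held 0 to 0.836. Rpl39l, a copy of the exit tunnel protein gene Rpl39 that is enriched in testis, stood at 425.4, 18.1 and 7.42 in the same libraries and at 0.185 to 1.74 in the other 6. Both were listed at 0 in all 9 liver libraries. The order ND 1, ND 3, HFD 1 is that of the testis marker sums. Rps4l, annotated as a pseudogene, stood at 284.4 in ND 1 and at 13.5 to 23.3 in the other fat libraries. Rpl3l, the heart and skeletal muscle copy of Rpl3, stood at 22.8 in fat ND 1 and 1.48 in fat HFD 2. In liver its highest value was 0.933 in HFD 2, the library with the most muscle marker RNA. Rpl7l1 was listed at 0 in all 18 libraries, Rpl6l reached at most 3.80 and Rps3a3 at most 0.168. Rpl22l1, a copy of the RNA-binding Rpl22, stood at 66.5 to 123.8 in 8 fat libraries and at 25.6 to 43.5 in liver. Rps27l, a copy of Rps27 known as a p53 target, was the only paralogue with more FPKM in every liver library than in any fat library other than ND 1.

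**Figure D3:**
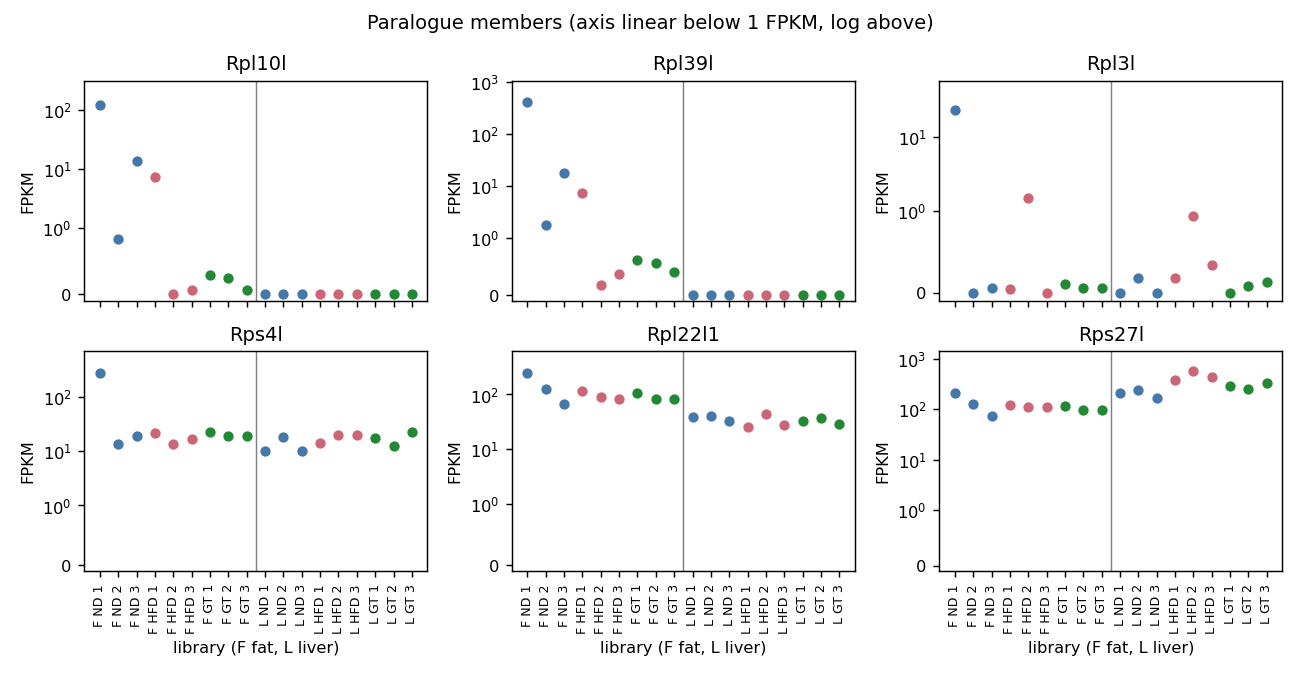
FPKM of 6 paralogue members in the 9 fat (F) and 9 liver (L) libraries, on an axis that is linear below 1 and logarithmic above, coloured by diet. Rpl10l and Rpl39l are high in fat ND 1, ND 3 and HFD 1 and at 0 in liver, while Rps27l is highest in HFD liver.

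In fat with all 9 libraries, no member passed the limma test in any diet comparison. For HFD minus ND 0 of 81 members kept were called, with 5.65% of all 13762 genes called (smallest adjusted p of a member 0.249). For GT minus HFD 0 members and 0% of genes were called, and for GT minus ND 0 members against 0.639% of genes. At an unadjusted p under 0.05, 0, 0 and 2 members passed in these comparisons, counts not set beside those of all genes. The median member differed by -0.26 for HFD minus ND, by -0.19 for GT minus HFD and by -0.51 for GT minus ND, against 0.13, -0.14 and 0.08 over all genes. These fits include ND 1, whose members exceeded those of both other ND libraries as described above.

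Without ND 1, 20 of 80 members kept were higher in HFD than in ND fat and 0 were lower (HFD minus ND, 3 libraries against 2). Of all 12859 genes tested 27.4% were called, 17.8% as higher and 9.62% as lower, against 25% and 0% of the members. The members differed more from other genes in their common direction than in that share: 72 of 80 had a positive difference and the median member differed by 0.39, against 0.02 over all genes tested, -0.02 over 747 other protein-coding genes with transcripts of at most 1000 bases, and 0.01 over 76 mitochondrial ribosomal protein genes. In 48 of 80 members, 60%, each HFD library exceeded both ND libraries, which held for 30% of all genes. The members called were Rpl3, Rpl4, Rpl10a, Rpl12, Rpl15, Rpl23a, Rpl27, Rpl34, Rpl35, Rpl36, Rpl36a, Rpl37 and Rpl39 of the large subunit and Rps2, Rps6, Rps16, Rps18, Rps23, Rps25 and Rps26 of the small subunit.

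Rps25, a small subunit protein used by several viral entry sites, stood at 195.0 and 154.6 FPKM in ND 2 and ND 3 and at 406.0, 349.1 and 349.2 in HFD fat (718.2 in ND 1). The HFD libraries lay well above both ND libraries, with a difference of 1.08 ± 0.17 (adjusted p = 0.00325). Rpl15 stood at 89.7 and 75.6 in ND 2 and ND 3 and at 169.5, 156.4 and 162.6 in HFD fat, with a difference of 0.97 ± 0.16 (adjusted p = 0.00386). In ND 1 Rpl15 stood at 156.2, just below the lowest HFD library. Rpl36a rose by 0.85 ± 0.18, the peptidyl transferase protein gene Rpl3 by 0.67 ± 0.15 and Rps2 by 0.73 ± 0.17 (adjusted p = 0.00995, 0.0118 and 0.0149). Rps6, whose protein is the classical substrate of the S6 kinases downstream of mTORC1, rose from 271.7 and 220.7 to 365.6, 334.9 and 351.5 FPKM (0.52 ± 0.16, adjusted p = 0.0444). None of the 3 stalk genes passed. Rplp0 differed by 0.27 ± 0.13 (adjusted p = 0.178). Rplp1 differed by 0.60 ± 0.20 (adjusted p = 0.0603), while Rplp2 stood at 268.0 and 163.0 in ND 2 and ND 3 and at 183.3, 147.8 and 158.6 in HFD fat, a lower level with overlapping libraries. Rps27, a zinc finger protein gene of the small subunit, was the 1 member with both ND libraries (396.1 and 414.2) above all HFD libraries (333.1, 384.5 and 319.2), as 20.2% of genes were, and it did not pass the test.

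In fat the median difference of the members was positive in each class of coding length. It was 0.18 for the 9 standard members of up to 300 bases, 0.45 for those above 300 and up to 450 bases, 0.42 for those up to 600 bases and 0.44 above that, against 0.08, 0.06, 0.12 and 0.04 for other genes of these lengths. All 21 members above 600 bases had a positive difference. The 10 macrophage markers summed to 542.3 and 421.4 FPKM in ND 2 and ND 3, to 4534 to 6618 in HFD fat and to 1500 to 3778 in GT fat, and so moved with diet in the same direction as the members. Their part in the members' rise was not tested. Leaving out ND 3 and HFD 1 as well, the other libraries with testis marker RNA, left 5 members called, 3 higher (Rpl15, Rps2 and Rps25) and 2 lower (Rplp2 and Rps3a2), with a member median of 0.21 against 0.14 over all genes and 30.4% of genes called. That fit keeps 1 normal diet library, ND 2, which is assumed to vary like the other groups. Leaving out a single further HFD or GT library changed the count. Without HFD 1 it was 7, 8.86% of members against 22.5% of genes. Without HFD 2 it was 11 (13.8% against 22%) and without GT 2 it was 13 (16.2% against 21%). Without HFD 3 it was 6, 7.5% of members, with 2048 of 12790 genes called. In each of these runs the share of members called lay below that of all genes. Without GT 1 or GT 3 the count was 26, 32.5% of members against 25.9% and 26.7% of genes. All member calls in these runs were higher. Leaving out ND 2 or ND 3 leaves 1 normal diet library, so those counts are not given. Rps25, Rpl15, Rpl36a and Rpl3 stayed called in each of 15 other alternatives of this fit.

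For the extract against the high-fat diet alone in fat without ND 1, 1 of 80 members was called, Rps25, which was lower (-0.81 ± 0.15, adjusted p = 0.0492), and 1.70% of genes were called. Its levels with the extract were 242.7, 206.7 and 180.8 FPKM, all below the 3 HFD libraries and overlapping ND 2. The median member differed by -0.18 against -0.12 over all genes, and 29 of 80 members had all GT libraries below all HFD libraries, 36.2% against 24.5% of genes. The next smallest p-values belonged to Rpl15 (-0.62 ± 0.14, adjusted p = 0.0721) and Rpl35 (-0.73 ± 0.18, adjusted p = 0.0782). The call of Rps25 was lost in 9 of 15 alternatives, among them leaving out HFD 1, HFD 2, HFD 3, GT 2 or GT 3. In GT minus ND 0 of 80 members were called, against 10.7% of genes. An unadjusted p under 0.05 was found for 3 members, not set beside the count of all genes. The median member differed by 0.18, between the ND and HFD levels. These comparisons share the HFD or the ND libraries with the one before.

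In liver, 23 of 79 members kept were higher on the high-fat diet and 0 were lower, with 18.6% of all 10670 genes called, 11.9% higher and 6.67% lower. The median member differed by 0.48 against -0.02 over all genes, 68 of 79 were positive, and in 37 of 79 members, 46.8%, all HFD libraries lay above all ND libraries, as they did in 23.6% of genes. Other short genes had larger differences: 351 of 615 protein-coding genes with transcripts of at most 1000 bases were called higher and 8 lower, with a median of 0.72. Mitochondrial ribosomal protein genes had a median of 0.49, with 37 of 76 higher. Among the members called were Rpl15, Rpl17, Rpl19, Rpl21, Rpl23a, Rpl27, Rpl29, Rpl35, Rpl35a, Rpl36, Rpl36a, Rpl37, Rpl38, Rpl39 and Rpl41, then Rps10, Rps12, Rps15, Rps23, Rps25 and Rps28, and the paralogue Rps27l.

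Rps27l stood at 212.1, 245.7 and 170.7 FPKM in ND liver, at 391.1, 570.0 and 440.3 in HFD liver and at 298.5, 256.7 and 333.6 with the extract. The diets did not overlap, with HFD highest and GT between. The difference for HFD minus ND was 1.15 ± 0.20 (adjusted p = 0.00559), and it stayed called in each of 17 alternatives (adjusted p at lowest 0.00196). Its partner Rps27 stood at 291.2, 482.3 and 272.5 in ND liver and at 440.0, 574.7 and 392.9 in HFD liver, with overlapping libraries, and was not called. Rps28, a protein of the mRNA exit channel, stood at 185.3, 192.1 and 141.0 in ND liver, 311.2, 520.0 and 268.1 in HFD liver and 148.1, 143.8 and 249.9 with the extract (HFD minus ND 1.03 ± 0.28, adjusted p = 0.0281). Rpl39 stood at 60.03, 106.8 and 74.5, then at 151.8, 190.4 and 138.5, and with the extract at 61.0, 56.2 and 93.6 (1.01 ± 0.25, adjusted p = 0.0199). Rps23, a protein of the decoding centre, stood at 149.6, 247.3 and 175.2 in ND liver, 323.9, 394.3 and 311.5 in HFD liver and 142.6, 135.8 and 177.9 with the extract (0.87 ± 0.21, adjusted p = 0.0174). In each of these the 3 HFD libraries lay above all other liver libraries.

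Of the longer members, 4 had lower levels in every HFD liver library than in any ND library, and none passed the test. Rpl5, which with Rpl11 and 5S RNA can bind Mdm2, stood at 160.0, 172.1 and 153.7 FPKM in ND liver, at 127.1, 107.0 and 102.5 in HFD liver and at 112.8, 123.8 and 69.9 with the extract. All 3 HFD libraries and all 3 GT libraries lay below all 3 ND libraries, with differences of -0.53 ± 0.21 (adjusted p = 0.0984) and -0.70 ± 0.21 (adjusted p = 0.113), which did not pass. Rplp0, the stalk base, stood at 251.9, 291.2 and 232.4, then at 206.3, 190.2 and 163.0, and with the extract at 174.0, 207.8 and 123.3. It differed by -0.47 ± 0.20 for HFD minus ND (adjusted p = 0.126). Rpl3 differed by -0.49 ± 0.17 (adjusted p = 0.0685). Its levels were 140.9, 155.0 and 126.6 in ND liver and 107.3, 97.0 and 94.5 in HFD liver. Rps3, a protein at the mRNA entry channel, went from 113.4, 126.2 and 112.8 to 110.5, 95.6 and 84.2, also without overlap and without a call. These 4 were the members whose HFD libraries all lay below all ND libraries, 5.06% of 79 against 21.3% of all genes.

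**Figure D4:**
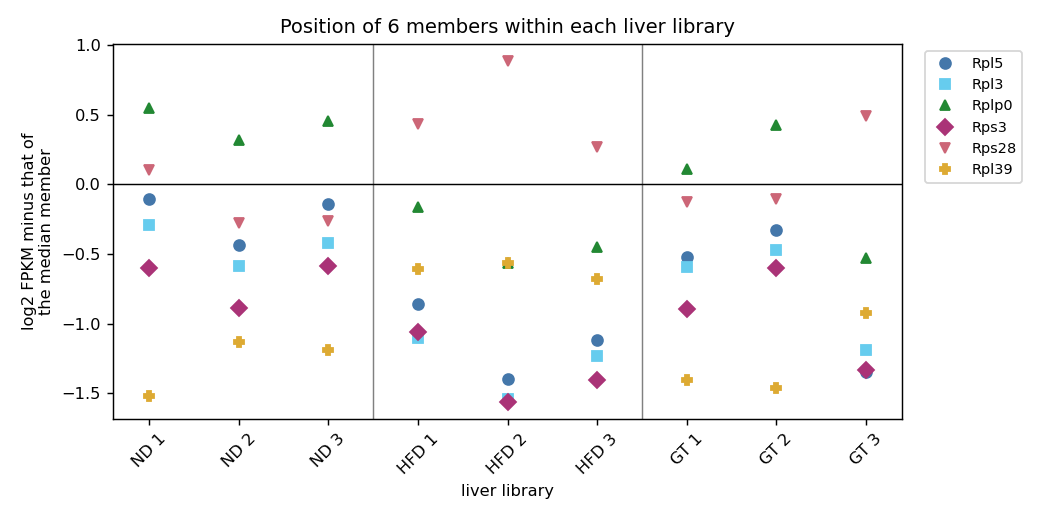
Difference of log2 FPKM from the median standard member within each liver library for Rpl5, Rpl3, Rplp0, Rps3, Rps28 and Rpl39. Rpl5 lies at -0.11 to -0.44 in ND, at -0.86 to -1.40 in HFD and at -1.35 in GT 3, and Rpl39 lies higher in HFD than in ND.

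Within liver libraries the members were thus ordered differently by diet. Relative to the median standard member of its library, Rpl5 stood at -0.11, -0.44 and -0.14 on the log2 scale in ND, at -0.86, -1.40 and -1.12 in HFD and at -0.52, -0.32 and -1.35 in GT. Rplp0 stood at 0.55, 0.32 and 0.45, then at -0.16, -0.57 and -0.45, and at 0.11, 0.42 and -0.53. GT 3 lay with the HFD libraries in both. Rpl5, Rplp0 and Rpl3 were the standard members that varied most in this measure over liver. The deviation of a member from its own mean correlated with coding length in opposite directions, with rank correlations over the 75 standard members of 0.47, 0.28 and 0.54 in ND, -0.31, -0.52 and -0.46 in HFD and 0.40, 0.34 and -0.27 in GT. These points share a library and are a description only. In fat the same measure was -0.59 in ND 1, -0.25 in ND 2 and between -0.06 and 0.16 in the other 7 libraries.

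The liver difference fell with coding length among members as among other genes. The median for HFD minus ND was 0.64 for the 9 standard members of up to 300 bases, 0.62 for the 27 of up to 450, 0.54 for the 18 of up to 600 and 0.20 for the 21 above that, and for other genes it was 0.69, 0.53, 0.29 and 0.08, and -0.15 above 1300 bases. When each library was corrected for its trend with coding length, a step added after seeing the data, the member median was 0.09. Then 5 members were called, with 12.8% of genes called. Rps27l remained higher (0.50), and Rps29, Rpl22l1, Rpl5 and Rps21 were lower (-0.84, -0.71, -0.63 and -0.57). Without HFD 2 and GT 3, the libraries with most muscle marker RNA, 16 members were called higher and 2 lower (Rpl3 and Rpl5), with 17.1% of genes called. Leaving out ND 1, ND 3 or HFD 2 gave 1 call each, with 5.38%, 4.82% and 4.35% of genes called. The count was 32 without ND 2 (17.3% of genes), 14 without HFD 1 (13.3%) and 13 without HFD 3 (14.0%). It was 19 without GT 1 (15.9%), 22 without GT 2 (18.3%) and 39 without GT 3 (31.8%). Equal FPKM totals gave 11, with 13.7% of genes called.

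**Figure D5:**
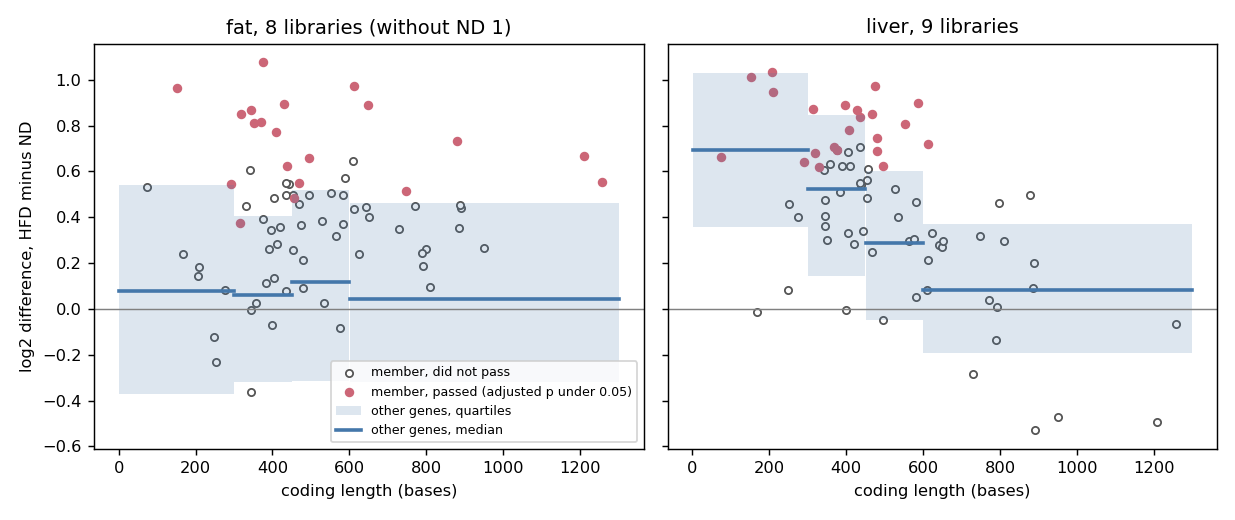
Difference of log2(FPKM + 1) between HFD and ND against coding length for the standard members in fat without ND 1 (left) and in liver (right), filled where the adjusted p is under 0.05, over the median (line) and quartiles (band) of other genes of that length. In liver members and other genes fall together from medians of 0.64 and 0.69 to 0.20 and 0.08, and in fat members lie above other genes in each class.

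With the extract, 13 of 79 members in liver were lower than on the high-fat diet alone and 0 were higher, with 5.36% of all genes called, 4.22% lower and 1.14% higher. These were Rpl15, Rpl22, Rpl23a, Rpl35, Rpl36a, Rpl38, Rpl39, Rpl41, Rplp1, Rps10, Rps12, Rps15 and Rps23. Rpl39 fell by 1.20 ± 0.25 and Rps23 by 1.17 ± 0.21 (adjusted p = 0.0264 and 0.0149), to the levels given above, which lay within or below the range of the normal diet. Rplp1 stood at 704.8, 844.6 and 637.6 FPKM in HFD liver and at 364.2, 405.0 and 486.2 with the extract, a fall of 0.80 ± 0.20 (adjusted p = 0.0449). Rpl38, whose loss in mice changes the translation of Hox messages, went from 429.3, 667.1 and 457.8 to 257.3, 237.8 and 318.2 (-0.91 ± 0.23, adjusted p = 0.0478). The median member differed by -0.54 against -0.04 over all genes, -0.54 over other short genes and -0.34 over mitochondrial ribosomal protein genes. In 50 of 79 members, 63.3%, all GT libraries lay below all HFD libraries, against 18.2% of all genes and 56.3% of other short genes. Of other short genes 20.7% were called lower, against 16.5% of the members, so the fall was shared by short genes. All 75 standard members had a negative difference. The 10 macrophage markers summed to 37.7 to 48.7 FPKM in ND, 41.8 to 66.4 in HFD and 23.8 to 35.7 in GT liver, and 7 fibroblast and mesothelial markers to 70.3 to 92.6, 84.6 to 139.4 and 43.2 to 66.6, so that HFD and GT did not overlap in either. Their part in the HFD and GT differences of the members was not tested. With a single library left out, the count was 5 (ND 1, with 3.03% of genes called), 15 (ND 2, 4.14%), 6 (ND 3, 3.28%) and 2 (HFD 1, 3.28%). It was 0 without HFD 2 (0.407%) or HFD 3 (0.947%), 1 without GT 1 (2.46%) or GT 2 (1.44%), and 39 without GT 3 (11.7%). After the correction for coding length 1 call (Rps23) was left, with 2.27% of genes called. Since the HFD libraries serve both comparisons, the rise and the fall are not independent of each other.

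Between extract and normal diet in liver 0 of 79 members were called, against 2.60% of genes. An unadjusted p under 0.05 was found for 7 members, a count not set beside that of all genes. The median member differed by -0.11 against -0.05. Rps27l was the member with all GT libraries above all ND libraries (0.51 ± 0.20, adjusted p = 0.225; 8.43% of genes were so placed), and 10 members, 12.7%, had all GT libraries below, against 13.1% of genes.

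Of the 20 members higher in fat and the 23 higher in liver, 10 were the same, 50% of the fat calls and 43.5% of the liver calls. These were Rpl15, Rpl23a, Rpl27, Rpl35, Rpl36, Rpl36a, Rpl37, Rpl39, Rps23 and Rps25. The overlap was not tested. Rpl3 and Rpl4, long members called higher in fat, had differences of -0.49 and -0.07 in liver. The test of the difference between tissues in the HFD response, over 18 libraries, called 1 of 79 members, with 8.53% of 10042 genes called. It was Rpl5, at 1.09 ± 0.32 (adjusted p = 0.0466), which stood at 221.9 and 185.4 FPKM in fat ND 2 and ND 3 (158.3 in ND 1) and at 269.3, 279.2 and 278.9 in HFD fat. Neither of its changes within a tissue passed (0.44 ± 0.15 in fat without ND 1, adjusted p = 0.0592, and the liver value given above). Without fat ND 1 it was 0.97 (adjusted p = 0.018) and 3 members were called, with 21.5% of genes called. Without fat ND 3, 11 members were called, 10 of them with a smaller response in fat, with 22.7% of genes called. No member was called for the difference in GT minus HFD, with 0.00996% of genes called, 0 members at an unadjusted p under 0.05 and a smallest adjusted p of 0.869.

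Between tissues, 43 of 79 members were higher in ND fat than in ND liver and 0 lower, 54.4% against 41.1% of genes higher and 11.2% lower (52.3% called). For HFD 12 were higher and 1 lower, 15.2% against 49.6% higher and 11.4% lower (60.9% called). For GT 25 were higher and 1 lower, 31.6% against 45.2% higher and 10.5% lower (55.6% called). The median member differed by 1.10, 0.47 and 0.81, against 0.59, 0.75 and 0.66 over all genes, so with all libraries the members' share of higher calls lay above the background on the normal diet and below it on the others. With equal FPKM totals the calls were 69, 62 and 67 higher and 1 lower on each diet, with 49.3%, 73.4% and 65.1% of genes called. With median-ratio scaling they were 4, 0 and 2 higher and 1, 3 and 1 lower, with 42.5%, 49.2% and 45.7%. So the counts depend on the scaling. The member median minus that of all genes kept its sign on each diet. It was 0.509, -0.279 and 0.153 as reported, 0.505, -0.198 and 0.199 with equal totals, and 0.441, -0.403 and 0.046 with median-ratio scaling. Without fat ND 1, 30, 42 and 60 were higher and 1 lower on each diet. The share of members called was then 39.2%, 54.4% and 77.2%, against 71.8%, 77.6% and 74.0% of genes. On the normal diet the median member then differed by 0.39 against 0.70 over all genes, so the position of the members above the background there rests on ND 1. Rps27l was lower in fat, with differences of -2.01 ± 0.30 in HFD and -1.49 ± 0.30 in GT (adjusted p = 4.1e-05 and 0.000623), and kept both calls in each of 25 alternatives. Rps3 was higher in fat on the high-fat diet by 1.48 ± 0.20 (adjusted p = 1.6e-05) and Rps4x, the X-linked small subunit gene, by 1.48 ± 0.22 (adjusted p = 3.2e-05), each call being lost under median-ratio scaling alone.

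Genes that work with the ribosome were taken from lists compiled from general knowledge, and their direction was mixed. Over all genes in fat without ND 1, 17.8% were called higher and 9.62% lower on the high-fat diet. The list counts below were not tested against these shares. In fat without ND 1, 2 of 11 elongation and termination factors rose on the high-fat diet (Eif5a and Gspt1) and 0 fell, and of 36 initiation factors 3 rose (Eif4a1, Eif1ax and Eif3f) and 3 fell (Eif4a2, Eif2b3 and Eif2b1). The helicase Eif4a1 rose by 1.18 ± 0.16 and its paralogue Eif4a2 fell by 1.03 ± 0.16 (adjusted p = 0.00187 and 0.00311). Of 21 other genes with TOP messages 3 rose and 0 fell: Rack1, a small subunit protein outside the naming rule (0.90 ± 0.16), the intermediate filament gene Vim and Eif3f. Of 41 ribosome assembly genes 4 rose, the snoRNP genes Nhp2 and Fbl with Nop16 and Bop1, and 2 fell, Dkc1 and Sbds. Of 22 genes listed under control of translation 3 rose, Sesn1, Eif2ak3 and Mdm2, the last named above as bound by Rpl5 and not itself a translation factor. On that list 3 fell, the inhibitors of eIF4E Eif4ebp3 (-2.49 ± 0.30) and Eif4ebp1 (-0.53 ± 0.15) and the leucine sensor Sesn2 (-1.51 ± 0.18). The list medians were 0.25 for elongation, 0.03 for initiation, 0.25 for TOP messages, 0.13 for assembly and 0.03 for control, beside 0.39 for the members.

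In liver the medians of these lists lay between -0.23 and 0.07, beside 0.48 for the members. Over all genes 11.9% were called higher and 6.67% lower there on the high-fat diet, and the list counts were not tested against these shares. Eef2, which moves the ribosome along the message, fell by 0.92 ± 0.26 on the high-fat diet (adjusted p = 0.0333) and was the 1 called gene of 11 elongation and termination factors. Of 36 initiation factors Eif1b rose and Eif5 fell. Among other TOP genes Vim rose by 1.10 ± 0.33, and Hnrnpa1 and Eef2 fell. Of 41 assembly genes Fbl and Sbds rose and Tsr1, Wdr12 and Dkc1 fell. Of 22 control genes Ddit4, an inhibitor of mTORC1, rose by 1.03 ± 0.26 and Eif4ebp1 by 0.79 ± 0.18, and Eif4ebp2 and Eif4ebp3 fell by 1.31 ± 0.29 and 1.09 ± 0.32. With the extract, Vim, Eif1 and Eif1b fell against the high-fat diet and Wdr12 rose, with 4.22% of all genes called lower and 1.14% higher. In that comparison 0 of 11 elongation factors and 0 of 22 control genes were called.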

How the data were processed

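The authors deposited FPKM values per gene for 18 libraries in 1 table, in which 0 columns lacked a sample. The tools named upstream are Cufflinks 2.1.1, STAR 2.4.0 and CASAVA 1.8.2, per the submitters' processing notes. Genome build and handling of reads with several matches are not given in the sources used here. GENCODE M21 supplied symbols for 22671 of 23474 identifiers, none for 803, and the transcript and coding lengths.

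FPKM is not a count, so log2(FPKM + 1) was tested with limma 3.58.1 under R 4.3.3, fitting group means and moderating variances (trend, robust). A gene entered a fit where at least 3 libraries reached 1 FPKM. P-values were adjusted by Benjamini-Hochberg over all genes of a fit, at 0.05. Fits used 9 fat, 8 fat (without ND 1), 9 liver, or 18 libraries over genes kept in both tissues. The fit was tested on simulated data. Members and lists were chosen with earlier results of these data known. Genes named were up to 5 members each way with the smallest p per comparison, the 3 highest and lowest per tissue, the stalk genes, Rpsa, the paralogues with their partners, the 3 most variable, and up to 4 genes of each list; further members were named after their values were seen, and some genes the rule names are left out of the text. Alternatives were another pseudocount, no filter, other scalings, a replicate block, fewer groups and libraries left out. The coding length correction and the fits without libraries of high testis or muscle markers were added after seeing the data. Same-numbered libraries correlated above 0.1 in every pair only for ND with GT in the 9 fat libraries (0.124 to 0.258), where the fit with the number as a block called no member either. No label ties the numbers together.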

Additional observations from a re-analysis of the deposited data

Results flagged for a closer look

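Rpl5 had a larger response to the high-fat diet in fat than in liver, by 1.09 on the log2 scale, in the limma test of the difference between tissues (adjusted p = 0.0466). All 3 HFD fat libraries (269.3, 279.2 and 278.9 FPKM) lay above all ND fat libraries (158.3, 221.9 and 185.4), and all 3 HFD liver libraries (127.1, 107.0 and 102.5) lay below all ND liver libraries (160.0, 172.1 and 153.7). The adjusted p ran from 0.018 to 0.128 over 24 alternatives, and the call was lost in 16 of them with the direction kept in each. Rpl5 was also the member with the lowest ratio of fat ND 1 to the other ND fat libraries (0.777), and without ND 1 the difference was 0.97.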

How the results depend on the processing

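Of 14 counts of members called, the following moved by over 1.5 times or changed side. In fat with all libraries, HFD minus ND moved from 0 without the libraries with testis markers, in the fit with 1 normal diet library described above. GT minus HFD gave 3 with the compared diets alone in the fit, with 7.43% of genes called, against 0 and 0%. In fat without ND 1, HFD minus ND gave 40 with equal FPKM totals (26.1% of genes called), 12 with median-ratio scaling (27.4%) and 12 with a replicate block (17.7%), against 20 (27.4%). GT minus HFD there gave 0 with an added 0.1 (0.941% of genes), without a filter (0.0151%), with median-ratio scaling (1.24%) and with the block (0.0389%). It gave 2 with the coding length correction (2.67%) and 3 with the compared diets alone (7.43%), against 1 (1.70%). In liver, HFD minus ND gave 13 without a filter (9.35% of genes) and 11 with equal totals (13.7%), against 23 (18.6%). With the length correction it gave 5, of which 4 lower (12.8% of genes called), and the median change went to 0.09. GT minus HFD in liver gave 2 without a filter (1.52% of genes), 4 with equal totals (1.95%), 5 with median-ratio scaling (3.81%) and 7 with the block (2.87%), against 13 (5.36%). It gave 1 with the length correction (2.27%, median -0.22) and 3 with the compared diets alone (1.68%). Between tissues the ND, HFD and GT counts were 70, 63 and 68 with equal totals, with 49.3%, 73.4% and 65.1% of genes called. They were 5, 3 (all lower) and 3 with median-ratio scaling (42.5%, 49.2% and 45.7%). With the compared groups alone they were 0, 51 and 56 (17.1%, 80.7% and 71.2%), and HFD gave 29 with the length correction (61.5%). The difference between tissues in the HFD response gave 0 with an added 0.1 (7.33% of genes), median-ratio scaling (8.96%) or the block (7.13%). The Rpl7a difference between tissues on the high-fat diet was 0.48 with equal totals, against -0.19. The cause of these moves was not tested. Equal totals moved the median of all genes for HFD minus ND from -0.02 to -0.20 in liver and from 0.13 to 0.41 in fat with all libraries.

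With each library left out in turn, counts in fat with all libraries ran from 0 to 20, 0 to 1 and 0 to 2 for HFD minus ND, GT minus HFD and GT minus ND, and without ND 1 from 6 to 33, 0 to 3 and 0 to 3. In liver they ran from 1 (4.35% to 5.38% of genes called) to 39 (31.8%) for HFD minus ND. For GT minus HFD they ran from 0 (0.407% and 0.947%) to 39 (11.7%), and for GT minus ND they stayed at 0 (0.462% to 4.04%). Between tissues they ran from 19 to 70 for ND (43.5% and 50.6% of genes called), 9 to 43 for HFD (55.9% and 77.6%) and 15 to 61 for GT (48.6% and 74.0%). For the tissue difference in the HFD response they ran from 0 to 11. The 11 (10 lower in fat) were without fat ND 3, with 22.7% of genes called. Same-numbered libraries had correlations of -0.069 to 0.643 in the 9 fat libraries, -0.617 to 0.321 in fat without ND 1 and -0.301 to 0.418 in liver, so apart from ND with GT in 9 fat libraries the numbers were not taken as pairs. With the block, liver HFD minus ND gave 19 members, with 15.5% of genes called. Of the values of single members named by rule, 2394 stayed on the same side of the threshold under alternatives. Among the rest, 89 lost a call, 47 gained a call and 1 (Rpl7a) changed sign with a call. Values that changed sign without a call in either run are counted among the 2394. Fat comparisons rest on 2 normal diet libraries once ND 1 is left out, and FPKM gives no read number, so the precision of low values is unknown.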
